A study of Mus musculus with 20 samples.

Results

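The 2-oxoglutarate dioxygenases described here are 39 listed genes whose products act on chromatin, nucleic acids or related substrates, and the list follows enzyme families, with no expression threshold. Of these, 38 were matched by Ensembl identifier and GENCODE M21 symbol to the 39179 genes of the count files, and 34 of the 38 had enough reads to be tested. By subfamily the list held 3 TET enzymes, 15 JmjC-domain demethylases (JmjC is the catalytic fold of most histone demethylases), 5 other JmjC proteins, 9 ALKBH enzymes and 7 others. Expression was measured by RNA-seq in immortalised epithelial cells of mouse kidney (strain C57BL/6J) in 4 groups of 5 libraries, grown in uridine-supplemented medium. Fh1_fl_fl cells are labelled wild type for Fh1, clone1 and clone19 carry an Fh1 deletion, and Rec cells are labelled as re-expressing wild-type Fh1. Each clone is 1 clonal line, and the labels name neither the clone that Rec came from nor the part of Fh1 that was deleted. Whether replicate libraries stem from separate cultures is not stated, so p-values measure the spread between these libraries, which may be technical. Any contrast between groups is also a contrast between single cell lines.

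Dioxygenases of this family use iron, oxygen and 2-oxoglutarate to hydroxylate a substrate, which removes a methyl group when the hydroxylated group is an N-methyl, and they release succinate. Fh1 encodes fumarate hydratase, the enzyme of the tricarboxylic acid cycle that turns fumarate into malate, and fumarate that accumulates without it can compete with 2-oxoglutarate in these enzymes. TET enzymes oxidise methylcytosine in DNA, JmjC demethylases act on methylated histone lysines, and ALKBH enzymes act on alkylated or methylated bases of DNA and RNA. The libraries measure transcript levels and not the activity of any enzyme.

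Sequences before a start of 4 members are shown because their transcripts had some of the widest differences among the groups. Against Fh1_fl_fl these were downward for Hspbap1 and upward for Kdm7a and Alkbh5 in both clones. Tet2 was lower mainly in clone19, and in Rec more than in clone1. Each is the 250 bases before the RefSeq start (GRCm38.p6), 5′ to 3′ in the direction of the gene. The RefSeq starts of Tet2 and Alkbh5 lie inside the GENCODE spans of these genes given further on, so their windows lie within those spans. The windows of Kdm7a and Hspbap1 reach only a few bases into theirs. Capitals mark ACGTG and GCGTG, the core letters of hypoxia response elements, and TGACNNNGC, the core of antioxidant response elements. Both strands were searched, so a match on the other strand appears as its reverse complement (CACGT for the first), and ACGTG overlaps its own reverse match inside CACGTG. 
Tet2 (chr3:133544391-133544640, minus strand): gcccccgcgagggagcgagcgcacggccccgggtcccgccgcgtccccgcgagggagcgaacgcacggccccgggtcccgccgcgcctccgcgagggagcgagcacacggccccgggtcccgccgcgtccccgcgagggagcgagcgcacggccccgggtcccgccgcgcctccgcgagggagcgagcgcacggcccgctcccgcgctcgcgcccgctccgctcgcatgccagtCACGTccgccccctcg
Kdm7a (chr6:39206774-39207023, minus strand): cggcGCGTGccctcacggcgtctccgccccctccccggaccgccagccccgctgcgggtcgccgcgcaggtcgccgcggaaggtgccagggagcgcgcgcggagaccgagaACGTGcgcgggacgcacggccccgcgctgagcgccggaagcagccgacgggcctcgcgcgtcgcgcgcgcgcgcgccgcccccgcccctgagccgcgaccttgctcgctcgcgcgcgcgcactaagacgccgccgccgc
Alkbh5 (chr11:60537433-60537682, plus strand): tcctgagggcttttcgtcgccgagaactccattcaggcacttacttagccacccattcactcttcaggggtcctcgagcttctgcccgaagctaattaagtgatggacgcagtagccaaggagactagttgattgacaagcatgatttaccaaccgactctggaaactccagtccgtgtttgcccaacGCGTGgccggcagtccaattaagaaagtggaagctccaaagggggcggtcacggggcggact
Hspbap1 (chr16:35770136-35770385, plus strand): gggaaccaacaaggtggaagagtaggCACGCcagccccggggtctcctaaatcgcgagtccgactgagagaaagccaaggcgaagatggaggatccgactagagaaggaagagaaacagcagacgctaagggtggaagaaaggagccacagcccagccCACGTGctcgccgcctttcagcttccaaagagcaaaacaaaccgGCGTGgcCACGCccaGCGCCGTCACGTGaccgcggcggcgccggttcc

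Hspbap1 carried 4 matches of ACGTG, 3 of GCGTG and 1 of TGACNNNGC, whereas Alkbh5 carried 1 GCGTG and Tet2 carried 1 ACGTG, the reverse match at base -16. The Kdm7a window was the richest in CpG of the 4, with 56 CpG in these 250 bases against 51 for Tet2, 22 for Hspbap1 and 14 for Alkbh5. In windows of 300 bases (250 before and 50 after the start), 39 promoters of 31 members were found in the RefSeq table. The letters ACGTG or GCGTG occurred in 23 of the 39 (59.0%) and in 43.8% of all 32851 promoters of that length. TGACNNNGC occurred in 11 of the 39 (28.2%) and in 12.4% of all promoters. Some members have several windows, and overlapping windows of Kdm2b share a TGACNNNGC match. Counted by member, 19 of the 31 held ACGTG or GCGTG and 10 held TGACNNNGC. Member promoters also held more CpG, with a median of 20 against 7 over all promoters, and ACGTG and GCGTG each contain a CG. These matches describe letters in a window and say nothing of binding.

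Gene-assigned reads per library ranged from 5988447 to 18972176 (median 10485784), and 3 counts, the level below which a gene cannot be told from undetected, corresponded to 0.158 to 0.501 CPM (counts divided by the scaled library size). Fh1 was counted in every library, at 92.3 ± 6.16 CPM (mean ± SD, n = 5) in Fh1_fl_fl, against 112 ± 5.93 in clone1, 84.7 ± 7.3 in clone19 and 71.3 ± 7.08 in Rec. These counts sum all exons of the gene and neither show the deletion in the clones nor more Fh1 reads in Rec, so group names are used here as labelled. Replicate 3 of clone19 stood apart with 8.202% of its reads on Gm42418, a gene that overlaps a ribosomal RNA repeat (median of all libraries 0.314%). In replicate 1 of clone1, long genes were lower relative to short genes by 0.31 on the log2 scale than in the median library of that group, and in replicate 2 of Rec by 0.21. All 8 kidney epithelial markers were expressed, with a summed level of 3440 to 3987 CPM in Fh1_fl_fl, 2638 to 3282 in clone1, 2094 to 2394 in clone19 and 4309 to 4755 in Rec. The sum joins genes that moved in opposite directions: Pax8 (0.94 and 0.27) and Krt19 (0.88 and 0.40) were higher in clone1 and clone19 than in Fh1_fl_fl on the log2 scale, Krt18 was higher in clone1 (0.23), and in Rec the keratins Krt8, Krt18 and Krt19 were higher while Pax2 (-1.50), Cdh16 (-0.48) and Cdh1 (-0.24) were lower. Of 7 fibroblast markers 3 passed the filter on low counts, and their list summed to 1.15 to 1.66 CPM in Fh1_fl_fl, 3.81 to 6.93 in clone1, 12.1 to 15.4 in clone19 and 1.31 to 1.87 in Rec, with Pdgfrb and Lum at 0 in all 20 libraries and Col3a1 at 0 in all but 2 clone19 libraries. Endothelial markers (2 of 6 tested) summed to at most 10.7 CPM and leukocyte markers (2 of 7 tested) to 45.7 to 52.4 CPM in Fh1_fl_fl and 21.1 to 31.0 in the other groups. Those 2 moved apart, Csf1r from 43.5 CPM in Fh1_fl_fl to 13.3 in clone1, 7.54 in clone19 and 21 in Rec, and Cd68 from 3.97 to 7.6, 18.1 and 2.62. Podxl, also a podocyte marker, was higher than in Fh1_fl_fl (125 CPM) in clone1 (212), clone19 (199.5) and Rec (165), and Synpo, another, was lower, at 18.4 CPM against 14.8, 10.1 and 1.34. The part of these differences in the results below was not tested. In bulk libraries, fewer cells expressing a gene and less RNA per cell cannot be told apart.

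Each clone was first set against Fh1_fl_fl to ask how transcripts of the dioxygenases differ where Fh1 is labelled deleted. In clone1, 15 of the 34 tested members were higher and 11 lower than in Fh1_fl_fl at a Benjamini-Hochberg adjusted p under 0.05 in edgeR's quasi-likelihood test over all 12671 tested genes. That is 76.5% of the members, against 78.6% of all genes called in that comparison (38% higher, 40.5% lower). In clone19, 14 members were higher and 7 lower (61.8%; 72.9% of all genes, 36.8% higher and 36.1% lower). In Rec, 6 members were higher and 12 lower than in Fh1_fl_fl (52.9%; 70.8% of all genes, 33.4% higher and 37.4% lower). With the 2 clones averaged against the mean of Fh1_fl_fl and Rec, 18 members were higher and 8 lower (76.5%; 79.7% of all genes, 39.4% higher and 40.3% lower). The share of members called was thus close to or below that of genes at large. The median log2 fold change of the 34 was 0.07 in clone1 (-0.03 over all genes), 0.07 in clone19 (0.00) and -0.09 in Rec (-0.03), and the median size of change was 0.60, 0.40 and 0.20 against 0.58, 0.48 and 0.44 over all genes.

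**Figure D1:**
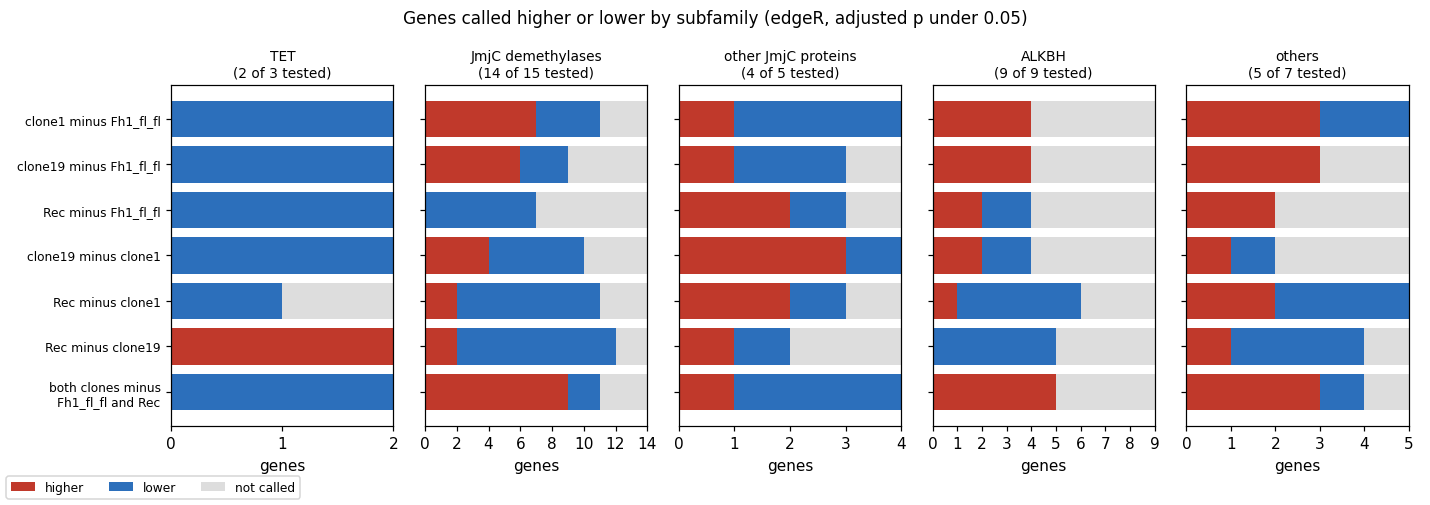
Number of tested members of each subfamily called higher, called lower or not called (edgeR, adjusted p under 0.05) in each clone and in Rec against Fh1_fl_fl and in the contrast of both clones with Fh1_fl_fl and Rec. Both tested TET genes were lower in clone1, clone19 and Rec (of all genes, 40.5%, 36.1% and 37.4% were lower). In Rec 7 of the 14 tested JmjC demethylases were lower while 0 were higher (50% called; 70.8% of all genes).

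Among the members, 10 were above every Fh1_fl_fl and Rec library in all 10 libraries of the 2 clones (29.4% of those tested; 11.4% of all genes), and these were Kdm3b, Kdm4b, Kdm7a, Phf8, Jmjd6, Alkbh2, Alkbh5, Alkbh6, Ogfod3 and Phyh. Another 3 were below in all 10, Kdm2b, Kdm8 and Hspbap1 (8.82%; 10.7% of all genes). A difference beyond 2-fold in at least 1 of the 6 pairwise comparisons was called for 14 members (41.2%; 49.1% of all genes). Kdm2a and Alkbh4 were called in 0 of the 6 comparisons (5.88%; 2.36% of all genes). Tet2, Kdm4b, Kdm5b, Kdm7a, Jmjd6, Hspbap1 and Alkbh2 were called in all 6 (20.6%; 18.7% of all genes).

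Of the TET genes, Tet2 and Tet3 were lower than in Fh1_fl_fl in both clones and in Rec, and Tet1 was close to undetected. Of all genes, 40.5% were called lower in clone1, 36.1% in clone19 and 37.4% in Rec. Tet2 (ENSMUSG00000040943, chr3:133463679-133545139, minus strand of GRCm38) had the widest differences of any member. Its level in the 5 libraries of Fh1_fl_fl was 7.39, 5.08, 6.07, 5.94 and 6.69 CPM, and in clone1 it was 4.08, 4.45, 5.06, 5.95 and 3.64. In clone19 it was 0.166, 0.46, 0.524, 0.197 and 0.409 CPM, from 1 to 4 counts per library and so around the limit of detection, and in Rec it was 1.87, 2.26, 2.29, 2.35 and 2.08. All clone19 libraries lay below all others and all Rec libraries lay below those of clone1 and Fh1_fl_fl, whereas clone1 overlapped Fh1_fl_fl. Against Fh1_fl_fl the log2 fold change of Tet2 was -0.47 ± 0.14 (adjusted p = 0.0043) in clone1, -4.14 ± 0.25 (adjusted p = 2.96e-14) in clone19 and -1.54 ± 0.16 (adjusted p = 1.6e-09) in Rec (± SE). The SE given here is the size of the change divided by the square root of the test's F statistic. With 1 to 4 counts per library, it may understate the uncertainty for clone19. Clone19 was 12.7-fold below clone1, and Rec was 6.06-fold above clone19. The Tet2 promoter window shown above held 1 ACGTG.

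Tet3 (ENSMUSG00000034832, chr6:83362373-83459084, minus strand), the TET enzyme that oxidises the paternal genome of the zygote, was the most abundant of the 3 here. It was at 51.2, 57.2, 49.5, 49.6 and 54.5 CPM in Fh1_fl_fl, against 29.6, 37.6, 39.5, 46.7 and 38.7 in clone1, 27.2, 20.8, 23.9, 22.7 and 27.1 in clone19 and 44.3, 38.9, 42.7, 37.5 and 47.2 in Rec. Each derived group lay wholly below Fh1_fl_fl, and clone19 lay below all the other groups. Its log2 fold change was -0.45 ± 0.09 (adjusted p = 6.56e-05) in clone1, -1.11 ± 0.10 (adjusted p = 8.11e-11) in clone19 and -0.31 ± 0.09 (adjusted p = 0.00345) in Rec. Rec did not differ detectably from clone1 (0.15 ± 0.09, adjusted p = 0.152), but exceeded clone19 by 0.80 ± 0.10.

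Tet1 (ENSMUSG00000047146, chr10:62804570-62908996, minus strand), which prevails in embryonic stem cells, was at 0, 0.207, 0.324, 0.0716 and 0.144 CPM in Fh1_fl_fl, against 0.298, 0.387, 0.33, 0 and 0.347 in clone1, 0, 0, 0.524, 0 and 0.102 in clone19 and 0.747, 0.295, 0.899, 0.47 and 0.347 in Rec. That is 0 to 11 counts per library, so it did not pass the filter on low counts. The Rec libraries held 32 counts in all and the Fh1_fl_fl libraries 9. Without the filter, edgeR called Tet1 higher in Rec than in Fh1_fl_fl (log2 fold change 1.95, adjusted p = 0.00634), and so did DESeq2 (2.01, adjusted p = 0.0178).

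Of the 14 tested JmjC demethylases, 7 were higher and 4 lower in clone1 than in Fh1_fl_fl (7 and 6 when scaled to library totals), and 6 were higher and 3 lower in clone19 (5 and 5). These are 78.6% and 64.3% of the 14, against 78.6% and 72.9% of all genes. In Rec, 0 were higher and 7 lower (50%; 70.8% of all genes). The count of lower members was 10 under library totals, 6 with DESeq2 and 6 without replicate 2 of Rec. The count of higher members was also 0 at an unadjusted p under 0.05, with DESeq2 and with limma-voom. In the contrast of both clones with Fh1_fl_fl and Rec, 9 were higher and 2 lower (78.6%; 79.7% of all genes). The summed epithelial markers were lower in the clones and higher in Rec than in Fh1_fl_fl, although single markers moved the other way, as given above. Their part in the calls of the JmjC demethylases was not tested.

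Kdm7a (ENSMUSG00000042599, chr6:39136623-39206789, minus strand), which removes methyl groups from H3K9 and H3K27, had the largest rise. Its level was 50.8, 50.6, 47.3, 51 and 50.9 CPM in Fh1_fl_fl and 130.3, 202, 220.4, 208 and 211 in clone1. In clone19 it was 91.5, 78.3, 78.5, 83.8 and 83.1 CPM and in Rec 22.8, 18.8, 25.2, 30.3 and 30.7. The 4 groups did not overlap, in the order Rec, Fh1_fl_fl, clone19, clone1. Against Fh1_fl_fl the log2 fold change was 1.95 ± 0.11 (adjusted p = 9.86e-15) in clone1, 0.73 ± 0.11 (adjusted p = 2.66e-06) in clone19 and -0.97 ± 0.12 (adjusted p = 6.46e-08) in Rec. Replicate 1 of clone1, the library with low long genes, was the lowest of its group, and without it the value for clone1 was 2.10. The distance from Rec to clone1 was 7.57-fold.

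Kdm4b (ENSMUSG00000024201, chr17:56326062-56402870, plus strand), a demethylase of H3K9, followed the same order of groups. It was at 27.6, 27.8, 26.7, 22.9 and 28.4 CPM in Fh1_fl_fl, against 49.5, 50.9, 53.6, 47.4 and 47.2 in clone1, 39.8, 29.4, 37.2, 36.1 and 39.1 in clone19 and 16.6, 16, 17.8, 18.1 and 17.5 in Rec. Again the groups did not overlap. Its log2 fold change was 0.90 ± 0.08 (adjusted p = 2.67e-11) in clone1, 0.44 ± 0.08 (adjusted p = 1.54e-05) in clone19 and -0.63 ± 0.08 (adjusted p = 1.08e-07) in Rec, and Rec was 2.89-fold below clone1.

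Phf8 (ENSMUSG00000041229, chrX:151520672-151633859, plus strand), an X-linked demethylase of H3K9, was at 5.29, 3.74, 4.37, 3.51 and 4.61 CPM in Fh1_fl_fl and 5.47, 8.9, 8.46, 9.3 and 6.85 in clone1. In clone19 it was at 9.11, 8.4, 6.64, 8.26 and 9.71 CPM and in Rec at 4.11, 2.85, 5.15, 4.7 and 3.65. The clones lay above both other groups and overlapped each other, as did Fh1_fl_fl and Rec. Phf8 had a log2 fold change of 0.82 ± 0.16 (adjusted p = 4.69e-05) in clone1 and 0.96 ± 0.16 (adjusted p = 7.87e-06) in clone19, with Rec at -0.10 ± 0.17 (adjusted p = 0.614).

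Kdm5a and Kdm6b were higher in clone1 and differed less in clone19. Kdm5a (ENSMUSG00000030180, chr6:120364124-120444574, plus strand), a demethylase of H3K4, was at 109, 107, 98.9, 104 and 103 CPM in Fh1_fl_fl, against 147, 199, 226, 212 and 207 in clone1, 126, 114, 112, 113 and 127 in clone19 and 102, 78.2, 85.5, 103 and 112 in Rec. All clone1 libraries lay above all others. From Fh1_fl_fl it differed by 0.92 ± 0.09 (adjusted p = 8.42e-10) in clone1 and 0.18 ± 0.09 (adjusted p = 0.0856) in clone19, and the clones differed from each other by -0.74 ± 0.09 (adjusted p = 1.09e-07). Although every clone19 library was above every Fh1_fl_fl library, that difference passed the test only in 2 kinds of the alternatives run, without 1 of the libraries and with those groups fitted alone.

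Kdm6b (ENSMUSG00000018476, chr11:69398508-69413675, minus strand), a demethylase of H3K27 induced by inflammatory signals, was at 44.1, 51, 44.3, 41 and 51.8 CPM in Fh1_fl_fl, against 65.8, 92.8, 91, 83.6 and 82.2 in clone1, 47.2, 32.6, 41.4, 44.1 and 58 in clone19 and 35, 34.9, 36.5, 33 and 37.8 in Rec. Clone1 lay above the other groups, clone19 overlapped Fh1_fl_fl and Rec lay below Fh1_fl_fl. Clone1 differed from Fh1_fl_fl by 0.84 ± 0.10 (adjusted p = 4.86e-08), and clone19 differed from clone1 by -0.89 ± 0.11 (adjusted p = 6.32e-08). Rec was below Fh1_fl_fl by a log2 fold change of -0.38 ± 0.11 (adjusted p = 0.00272).

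Kdm5b and Kdm8 were lower in the clones. Kdm5b (ENSMUSG00000042207, chr1:134560171-134635285, plus strand), a second demethylase of H3K4, was at 101, 95.7, 94.7, 101 and 107 CPM in Fh1_fl_fl, against 79.8, 80.9, 78, 88.6 and 91.8 in clone1, 67.1, 53.4, 61.9, 55.8 and 59.3 in clone19 and 41.3, 31.2, 33.4, 36.6 and 42 in Rec. The 4 groups did not overlap and Rec was the lowest. The log2 fold change from Fh1_fl_fl was -0.25 ± 0.07 (adjusted p = 0.00339) in clone1, -0.75 ± 0.08 (adjusted p = 1.79e-09) in clone19 and -1.43 ± 0.08 (adjusted p = 5.96e-15) in Rec. Because Rec was low, the contrast of both clones with Fh1_fl_fl and Rec was positive for Kdm5b, at 0.21 ± 0.06.

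Kdm8 (ENSMUSG00000030752, chr7:125444676-125462269, plus strand), also known as Jmjd5, was at 2.64, 3.53, 3.97, 2.65 and 3.96 CPM in Fh1_fl_fl, against 1.39, 1.55, 0.66, 1.22 and 1.21 in clone1, 1.99, 1.03, 1.75, 2.26 and 2.04 in clone19 and 3.18, 4.52, 3.27, 4.7 and 3.65 in Rec. Both clones lay below both other groups. The log2 fold change was -1.43 ± 0.23 (adjusted p = 2.72e-06) in clone1 and -0.85 ± 0.22 (adjusted p = 0.00115) in clone19, and Rec was 3.12-fold above clone1. Rec and Fh1_fl_fl overlapped, with a difference of 0.21 ± 0.18 (adjusted p = 0.31).

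Of the remaining JmjC demethylases, Kdm2b, an H3K36 demethylase that recruits Polycomb complexes to CpG islands, was at 62.9 ± 3.19 CPM (mean ± SD, n = 5) in Fh1_fl_fl, against 34 ± 2.66 in clone1, 52.6 ± 3.95 in clone19 and 63 ± 1.85 in Rec. It was lower in both clones, by 0.89 and 0.25 on the log2 scale. Its relative Kdm2a had nearly the same mean in all groups, 229, 218, 217 and 219 CPM in the order Fh1_fl_fl, clone1, clone19 and Rec, and its differences from Fh1_fl_fl were -0.07 ± 0.07, -0.08 ± 0.07 and -0.06 ± 0.07. When scaled to library totals, Kdm2a was called lower in clone1 (-0.21), clone19 (-0.20) and Rec (-0.19).

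Kdm3b, an H3K9 demethylase, was at 97.3 ± 5.54 CPM in Fh1_fl_fl and higher in clone1 (125 ± 11.4; 0.35 ± 0.08) and clone19 (125 ± 13.1). In Rec it was called lower, a call lost with DESeq2 and with a filter of at least 10 counts in 5 libraries. It was also lost in many of the fits that left out 1 library, such as replicate 2 of Rec (-0.11) or replicate 1 of Fh1_fl_fl (-0.15). An antisense transcript covers 24.6% of the exon bases of Kdm3b, and the strand setting of the counting is not given in the sources used here. Jmjd1c was higher in clone1 by 0.56 ± 0.10, and its lowest clone1 library, replicate 1, overlapped Fh1_fl_fl. Kdm4c, which acts on H3K9, was higher in clone19 (0.34 ± 0.08) and lower in Rec (-0.40 ± 0.08). Phf2, an H3K9 demethylase, was lower in clone1 (-0.40 ± 0.09) and in Rec (-0.57 ± 0.09). Kdm4a differed from Fh1_fl_fl in clone19 by 0.16 ± 0.07 (adjusted p = 0.0426), a call lost in 7 of the 20 fits that left out 1 library and under library totals (0.04). Kdm4d held 0 to 2 counts per library and was not tested.

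Among the other JmjC proteins, Jmjd6 was the member with the smallest adjusted p, and Hspbap1 moved the opposite way. Jmjd6 (ENSMUSG00000056962, chr11:116837432-116843449, minus strand), a lysyl hydroxylase of splicing factors, was at 43, 44.2, 44.6, 44.2 and 46.6 CPM in Fh1_fl_fl and 177, 167, 163, 159 and 155 in clone1. It was at 107, 121, 120.4, 114 and 103 CPM in clone19 and 55.1, 64.3, 58.5, 63.4 and 61.4 in Rec. No group overlapped another, in the order Fh1_fl_fl, Rec, clone19, clone1. The log2 fold change from Fh1_fl_fl was 1.88 ± 0.06 (adjusted p = 2.53e-20) in clone1, 1.35 ± 0.06 (adjusted p = 7.97e-17) in clone19 and 0.44 ± 0.06 (adjusted p = 3.18e-07) in Rec. Rec was 2.71-fold below clone1 and 1.87-fold below clone19. Mettl23 on the opposite strand shares 3.7% of its exon bases.

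Hspbap1 (ENSMUSG00000022849, chr16:35770375-35828477, plus strand), a JmjC protein that binds the small heat shock protein Hspb1, was at 30.6, 34.1, 30.4, 29.9 and 31.2 CPM in Fh1_fl_fl, against 11.9, 12, 10.3, 12.5 and 11.4 in clone1, 19.1, 21.4, 18.2, 20.9 and 18.8 in clone19 and 37.6, 38.6, 35.6, 39.7 and 36.3 in Rec. The groups again did not overlap, in the order clone1, clone19, Fh1_fl_fl, Rec. Its log2 fold change was -1.43 ± 0.07 (adjusted p = 8.92e-16) in clone1, -0.66 ± 0.07 (adjusted p = 4.05e-09) in clone19 and 0.27 ± 0.07 (adjusted p = 0.000718) in Rec, and Rec was 3.23-fold above clone1. Under library totals the difference of Rec from Fh1_fl_fl was 0.13 and was not called.

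Jarid2, a catalytically inactive JmjC protein of the Polycomb repressive complex that methylates H3K27, was at 17.2 ± 2.02 CPM in Fh1_fl_fl, against 9.97 ± 0.922 in clone1, 12.2 ± 2.23 in clone19 and 10.1 ± 0.789 in Rec. It was lower than in Fh1_fl_fl in all 3 derived groups, by 0.80, 0.53 and 0.76 on the log2 scale. Jmjd4, which hydroxylates a translation termination factor, was lower in clone1 (-0.64 ± 0.09), while clone19 (-0.17 ± 0.09) did not pass the test. Jmjd8 was at 0.742 CPM in Fh1_fl_fl and 0.118 in clone1 and was below the filter. Without the filter, edgeR called it lower in clone1 (-2.52, adjusted p = 7.4e-05), as did DESeq2 (-2.57, adjusted p = 0.000524), and 39.3% of its exon bases are shared with Stub1 on the opposite strand.

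Of the 9 ALKBH genes, 4 were higher in each clone than in Fh1_fl_fl and 0 were lower (44.4% called in each, against 78.6% of all genes in clone1 and 72.9% in clone19). The count of lower members in clone1 was also 0 at an unadjusted p under 0.05, with DESeq2 and with limma-voom. In clone19 it was 1 at an unadjusted p and with limma-voom and 0 with DESeq2. Alkbh5 (ENSMUSG00000042650, chr11:60536381-60558512, plus strand), which demethylates m6A in RNA, was the most abundant member per kilobase. Its level was 209.8, 185, 195, 196 and 206 CPM in Fh1_fl_fl and 505, 513, 515, 559 and 596 in clone1. It was 372, 326, 322, 339 and 352 CPM in clone19 and 186, 164, 180.1, 182 and 202 in Rec. The clones lay above the other groups and apart from each other, and Rec overlapped Fh1_fl_fl. The log2 fold change was 1.44 ± 0.06 (adjusted p = 1.67e-17) in clone1, 0.79 ± 0.06 (adjusted p = 9.49e-12) in clone19 and -0.12 ± 0.06 (adjusted p = 0.088) in Rec. Rec was 2.94-fold below clone1.

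Fto (ENSMUSG00000055932, chr8:91313525-91668439, plus strand), the other RNA demethylase that acts on m6A, was nearly level. It was at 144, 142, 142, 138 and 141 CPM in Fh1_fl_fl, against 143, 155, 147, 139 and 150.2 in clone1, 135, 116, 124, 137 and 138 in clone19 and 138, 124, 124, 126 and 131 in Rec. Both clones and Rec overlapped Fh1_fl_fl. The log2 fold change was 0.05 ± 0.06 (adjusted p = 0.365) in clone1, -0.12 ± 0.06 (adjusted p = 0.0543) in clone19 and -0.14 ± 0.05 (adjusted p = 0.0276) in Rec. The call in Rec was lost in 11 of the 20 fits that left out 1 library. In the contrast of both clones with Fh1_fl_fl and Rec, Alkbh5 differed by 1.17 ± 0.04 and Fto by 0.04 ± 0.04.

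Alkbh2 (ENSMUSG00000044339, chr5:114123926-114128218, minus strand), which repairs alkylated bases in double-stranded DNA, was at 12.5, 14.5, 12.8, 10.9 and 10.6 CPM in Fh1_fl_fl, against 22.4, 18.2, 17.7, 20 and 18.9 in clone1, 26.7, 27.3, 23.6, 28.4 and 25.2 in clone19 and 15.1, 13.4, 17.2, 15.1 and 14.5 in Rec. The clones lay above the other groups and clone19 lay above clone1, whereas Rec overlapped Fh1_fl_fl. Its log2 fold change was 0.67 ± 0.10 (adjusted p = 4.49e-07) in clone1, 1.11 ± 0.09 (adjusted p = 4.94e-11) in clone19 and 0.30 ± 0.10 (adjusted p = 0.00651) in Rec. Under library totals the value in Rec was 0.17 and was not called. Reads of Usp30 on the opposite strand could add to it, since 29.5% of its exon bases are shared.

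Alkbh6 and Alkbh1 were also called higher, Alkbh6 in both clones and Alkbh1 in clone19 and Rec. Alkbh6 was at 6.12 ± 0.567 CPM in Fh1_fl_fl, against 10.3 ± 1.28 in clone1, 9.68 ± 0.686 in clone19 and 5.89 ± 1.27 in Rec, and was higher in both clones by 0.75 and 0.66. Alkbh1, which demethylates transfer RNA, was higher in clone19 (0.73 ± 0.08) and in Rec (0.56 ± 0.08) but not detectably in clone1 (0.11 ± 0.08). Clone19 exceeded clone1 for Alkbh1 by 0.62 ± 0.08 (adjusted p = 2.93e-07). Alkbh3, which repairs alkylated single-stranded DNA and RNA, was higher in clone1 by 0.28 ± 0.09, which under library totals was 0.14 and not called. Alkbh4 and Alkbh8 differed from Fh1_fl_fl by at most 0.20 in size in any group, and none of these differences was called, although under library totals Alkbh8 was called lower in Rec (-0.28). In Rec, 2 ALKBH genes were higher and 2 lower than in Fh1_fl_fl (44.4% called; 70.8% of all genes). Under library totals, 1 was higher and 4 were lower. The 2 lower ones of the main fit, Alkbh7 (-0.27) and Fto, were not called without replicate 3 of clone19 or without replicate 1 of clone1, which left 0.

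**Figure D2:**
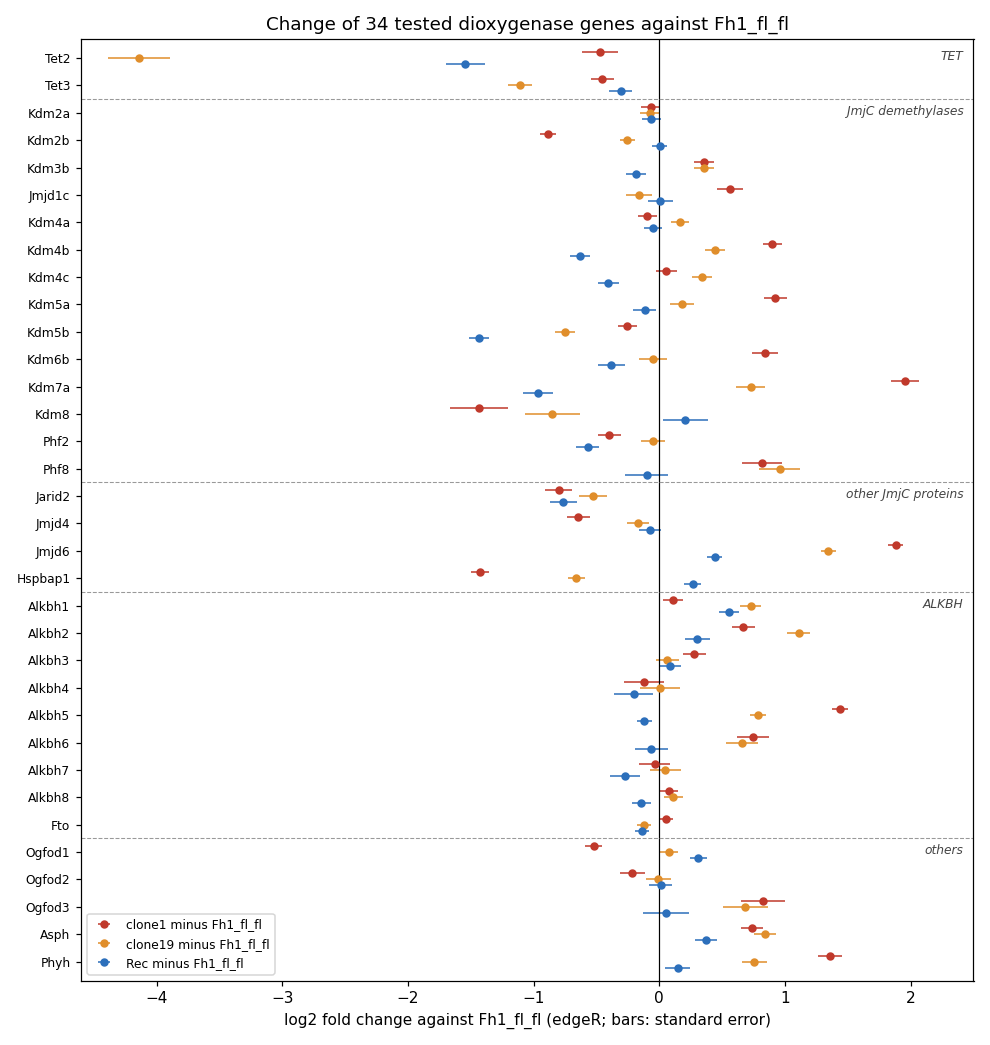
Log2 fold change (± SE derived from edgeR's F statistic) of the 34 tested members against Fh1_fl_fl in clone1, clone19 and Rec, ordered by subfamily. Values run from -4.14 for Tet2 in clone19 to 1.95 for Kdm7a in clone1. The Rec values are closer to 0 than those of clone1 for members such as Alkbh5, Phyh, Jmjd6 and Hspbap1. They are further from 0 for others, such as Tet2, Kdm5b, Phf2 and Alkbh1.

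In the remaining group, 3 of the 5 tested members were higher in each clone, with 2 lower in clone1 and 0 in clone19. These are 100% and 60% of the 5, against 78.6% and 72.9% of all genes. Phyh (ENSMUSG00000026664, chr2:4919019-4938730, plus strand), the peroxisomal hydroxylase that starts the breakdown of phytanic acid, was at 16.4, 17.6, 21.9, 17.7 and 15.2 CPM in Fh1_fl_fl, against 52.4, 43.5, 44.5, 41.5 and 44.8 in clone1, 27.5, 32.6, 36.9, 28.6 and 24.9 in clone19 and 18.4, 20.1, 20.3, 20.1 and 19.1 in Rec. The clones lay above the other groups and apart from each other. Its log2 fold change was 1.36 ± 0.10 (adjusted p = 6.6e-13) in clone1, 0.76 ± 0.10 (adjusted p = 1.71e-07) in clone19 and 0.15 ± 0.10 (adjusted p = 0.195) in Rec, and Rec was 2.32-fold below clone1.

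Asph, which hydroxylates aspartate and asparagine in EGF-like domains, was at 30 ± 2.43 CPM in Fh1_fl_fl, against 49.9 ± 8.58 in clone1, 53.9 ± 1.88 in clone19 and 38.8 ± 2.45 in Rec, and was called higher in all 3 derived groups, and 14.3% of its exon bases are shared with Clvs1 on the opposite strand. Ogfod3 was higher in clone1 (0.83 ± 0.17) and clone19 (0.68 ± 0.18), with 17.0% of its exon bases shared with Hexdc on the opposite strand. Ogfod1, a prolyl hydroxylase of the small ribosomal subunit, was lower in clone1 (-0.52 ± 0.07) and higher in Rec (0.31 ± 0.07). Ogfod2 was called lower in clone1 at an adjusted p of 0.0475 (-0.21 ± 0.10), which 14 of the 20 fits without 1 library did not call. P4htm, a transmembrane prolyl hydroxylase, held 0 to 3 counts per library and was not tested. Tmlhe, which starts carnitine synthesis, was not matched to an identifier in the files and is not analysed here.

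The 2 clones, which share the label Fh1 deletion, were compared directly to see how far they agreed. Clone19 differed from clone1 in 22 of 34 members, 10 higher and 12 lower (64.7%; 65.1% of all genes, 33.5% higher and 31.6% lower). The median size of difference was 0.45 against 0.38 over all genes. For Kdm7a, Jmjd6, Alkbh5, Phyh and Kdm4b, which were above Fh1_fl_fl in both clones, clone19 was lower than clone1, by 1.23, 0.54, 0.65, 0.60 and 0.46 on the log2 scale. Hspbap1, below Fh1_fl_fl in both clones, was 0.77 higher in clone19 than in clone1. Alkbh2, in contrast, was further from Fh1_fl_fl in clone19, 0.44 ± 0.09 above clone1, and so was Tet3, 0.65 below it.

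Rec was compared with each clone to ask how transcripts differ where Fh1 is labelled as re-expressed. Against clone1, 7 members were higher in Rec and 19 lower (76.5%; 77.9% of all genes, 39.7% higher and 38.1% lower). Against clone19, 6 were higher and 19 lower (73.5%; 73.8% of all genes, 35.8% higher and 38% lower). The median difference of the 34 was -0.30 against clone1 (0.01 over all genes) and -0.28 against clone19 (-0.02). Kdm7a (-2.92 and -1.69), Alkbh5 (-1.56 and -0.91) and Kdm4b (-1.53 and -1.07) were lower in Rec than in clone1 and clone19. Hspbap1 (1.69 and 0.93) and Kdm8 (1.64 and 1.06) were higher. Kdm5b, Tet2, Tet3 and Jarid2 were below Fh1_fl_fl in Rec as well as in both clones, and Tet2 in Rec lay between the 2 clones. All these comparisons use the same 20 libraries, so a low or high group enters several of them.

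**Figure D3:**
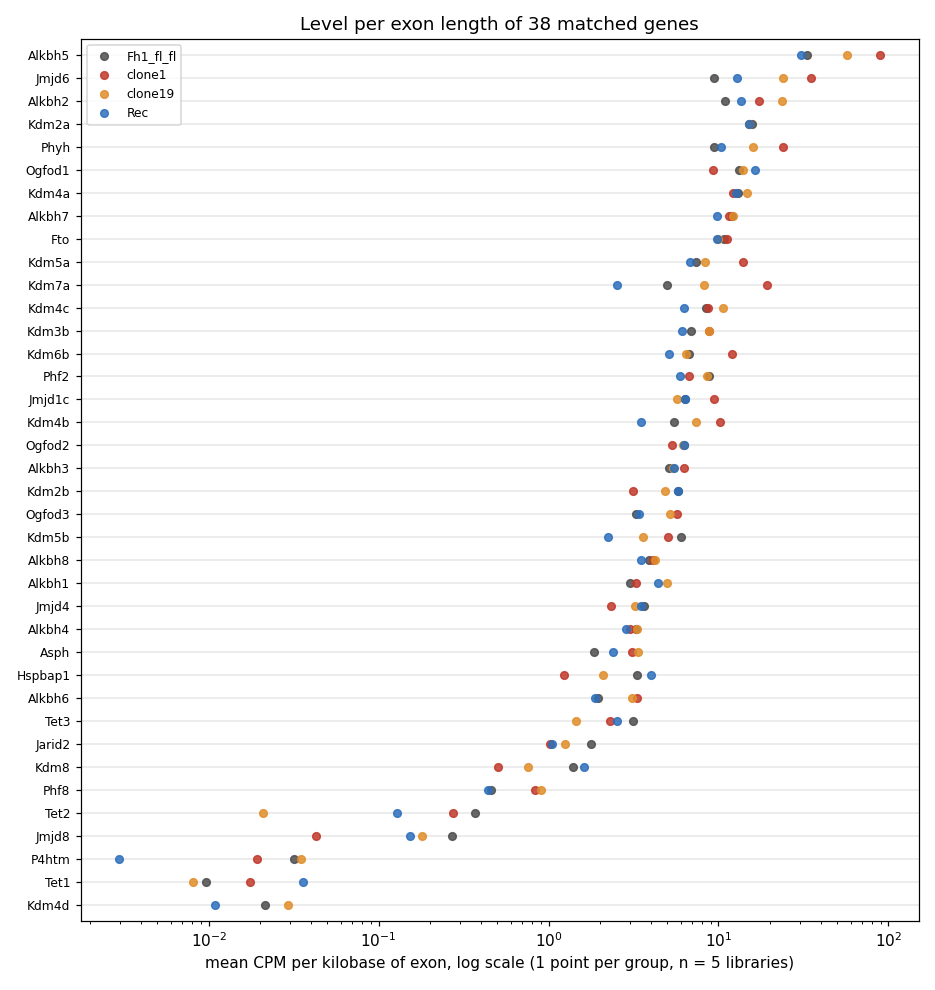
Mean level per kilobase of exon (CPM per kb, log axis, n = 5 per group) of the 38 matched members in each group, ordered by their mean over groups. Alkbh5 is the highest in every group (30.5 to 89.8) and Tet1, P4htm and Kdm4d lie at the bottom. Kdm4d, at 0 in clone1, is not drawn there.

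On the scale of CPM per kilobase of exon, which allows genes to be compared, Alkbh5 led with a mean of 52.7 over the 4 groups, followed by Jmjd6 (20.4), Alkbh2 (16.4), Kdm2a (15.3) and Phyh (14.9). Jmjd6 stood at 9.48 in Fh1_fl_fl and 34.9 in clone1. Among the H3K9 and H3K27 demethylases Kdm7a stood at 4.98 in Fh1_fl_fl, against 19.3 in clone1, 8.26 in clone19 and 2.54 in Rec. By this measure Tet3 stood at 2.36 and Tet2 at 0.199. Exon lengths here merge all annotated isoforms, so a gene expressed as a short isoform is understated.

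Lists of related genes were counted in the same fit. Of 23 tested dioxygenases of this family outside the list, 12 were higher and 7 lower in both clones averaged than in Fh1_fl_fl and Rec (82.6% called; 79.7% of all genes, 39.4% higher and 40.3% lower). Prolyl and lysyl hydroxylases, which modify collagen and hypoxia-inducible factors, were picked from these 23 and were not a list fixed beforehand. Of the 12 picked, 10 were higher and 1 lower (91.7% called; 79.7% of all genes), with a median of 1.30. Only 1 of the 7 lower genes of the 23 was thus among them, and the rest of the 23 did not share this direction. Fibroblast markers summed higher in the clones as well, and their part in the level of these hydroxylases was not tested. P4ha3, a collagen prolyl hydroxylase, was at 0.273 CPM in Fh1_fl_fl, against 4.01 in clone1, 0.741 in clone19 and 0.191 in Rec. The Y-linked relatives Kdm5d and Uty were at 14.1 and 14.9 CPM in Fh1_fl_fl and had 0 or 1 count in each library of the other 3 groups. Among 29 tested genes of 2-oxoglutarate, succinate and fumarate metabolism, 18 were higher and 7 lower in that contrast (86.2% called), led by Sdha (0.89 ± 0.04), the catalytic subunit of succinate dehydrogenase, then Got1 (0.77) and Suclg2 (0.76).

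Genes that place or read marks on which the members act, and repair partners of TET, were also counted. Of 20 histone methyltransferases for H3K4, H3K9 and H3K36, 5 were higher and 10 lower in both clones averaged than in Fh1_fl_fl and Rec. Smyd3 was higher by 1.52 ± 0.07, while Setd1b (-1.35) and Nsd1 (-0.99) were lower. Of 14 tested partners of TET in DNA methylation and repair, 3 were higher and 10 lower. These included Dnmt3b, a de novo DNA methyltransferase (-3.04 ± 0.21), Tdg, the glycosylase that removes oxidised methylcytosine (-1.66 ± 0.06), and Dnmt1 (-0.75). Of 20 writers and readers of m6A, the mark removed by Alkbh5 and Fto, 5 were higher and 13 lower, among them Rbm15b (-2.28 ± 0.11), Wtap (-0.82) and Ythdf2 (-0.73). The share called in these lists, from 75.0% to 92.9%, compares with 79.7% of all genes.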

How the data were processed

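Per the labels, RNA was total RNA from an RNeasy Plus kit and libraries followed standard Illumina protocols. The submitters' processing notes name TopHat2 2.0.4, HTSeq 0.5.3p9, DESeq 1.10.1 and GRCm38 without roles. The authors deposited raw read counts per Ensembl gene, 1 column per library. Rows that name no gene stayed out of totals and tests: per library, reads aligned more than once were 28.8 to 40.3%, reads in no feature 3.28 to 6.73% and ambiguous reads 0.462 to 0.653% of all reads listed in the file. Paralogs can lose reads to multiple alignment.

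Symbols, exons and coordinates came from GENCODE M21 (GRCm38) and promoters from RefSeq (GRCm38.p6). Counts of all genes were filtered (filterByExpr; 12671 of 39179 kept), scaled by TMM and fitted in edgeR 4.0.16 (R 4.3.3; glmQLFit, glmQLFTest) with 1 mean per group over 20 libraries, giving 7 contrasts with Benjamini-Hochberg adjustment. CPM use TMM-scaled library sizes. SE of log2 fold changes were derived from the test, as the size of the change divided by the square root of its F statistic. The common biological coefficient of variation was 9.02%. The script was tested on simulated counts. Members, gene lists and tests were chosen with earlier results of these data known. Values per library are given for Tet1, Tet2, Tet3, Fto, Alkbh5 and members called beyond 2-fold in a pairwise comparison. Outside the members, up to 3 tested genes per list with the largest change in both clones against Fh1_fl_fl and Rec are named. Replicate numbers did not pair libraries. Alternatives were RLE scaling, library totals, other filters, a replicate block, a 2-fold bound (glmTreat), only the groups compared, each library left out, limma-voom (limma 3.58.1) and DESeq2 1.42.0. Another podocyte marker is not reported here.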

Additional observations from a re-analysis of the deposited data

Results flagged for a closer look

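In 5 of the 136 sets of 5 libraries (34 members in 4 groups), 1 library lay far from the rest by Dixon's criterion, where chance marks about 1 set in 20. Replicate 1 of clone1 was one for Jmjd1c (109.1 CPM, the others 172.9 to 190.5), Kdm4a (60.0 CPM, others 71.5 to 76.1) and Kdm7a (130.3 CPM, others 202 to 220.4). In this library long genes were low relative to short genes. Replicate 3 of Fh1_fl_fl was low for Kdm7a (47.3 CPM, others 50.6 to 51.0), and replicate 5 of clone1 was low for Alkbh1 (17.9 CPM, others 21.8 to 23.3). Without replicate 1 of clone1, the log2 fold change of Jmjd1c in clone1 against Fh1_fl_fl was 0.72 in place of 0.56 and that of Kdm7a was 2.10 in place of 1.95. Without replicate 5 of clone1, Alkbh1 was called higher in clone1 than in Fh1_fl_fl (0.21, adjusted p = 0.0199, against 0.231 with it).

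The clones, both compared with Fh1_fl_fl, differed from each other in 22 members by edgeR's test of clone19 against clone1. Clone19 was lower for Tet2 (-3.67 on the log2 scale), Tet3 (-0.65), Jmjd1c (-0.72), Kdm4b (-0.46), Kdm5a (-0.74), Kdm5b (-0.50), Kdm6b (-0.89), Kdm7a (-1.225), Jmjd6 (-0.54), Alkbh5 (-0.65), Fto (-0.17) and Phyh (-0.60). It was higher for Kdm2b (0.63), Kdm4a (0.26), Kdm4c (0.28), Phf2 (0.345), Jarid2 (0.27), Jmjd4 (0.48), Hspbap1 (0.77), Alkbh1 (0.62), Alkbh2 (0.44) and Ogfod1 (0.60). The call for Jarid2 was lost in edgeR with RLE scaling (adjusted p = 0.0659) and without the filter (adjusted p = 0.112). Many of the fits that left out 1 library lost it too.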

How the results depend on the processing

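Over the member fold changes of the 7 contrasts, 0 called values changed sign in any alternative run. A 2-fold bound (glmTreat) left 4 members higher and 2 lower in clone1 than in Fh1_fl_fl, 1 and 1 in clone19, and 0 and 2 in Rec. Of all 12671 genes it left 2752, 1961 and 1401 in these comparisons. It left 0 and 1 members in clone19 against clone1, 2 and 7 in Rec against clone1, and 1 and 1 in Rec against clone19. Over all genes these comparisons kept 1214, 2787 and 1960. In both clones against Fh1_fl_fl and Rec it left 3 members higher and 2 lower, and 1989 of all genes. Scaling to library totals moved the median of all genes to -0.17 in clone1, -0.12 in clone19 and -0.17 in Rec against Fh1_fl_fl, gave 11 members lower in clone19 in place of 7, and 4 higher and 18 lower in Rec in place of 6 and 12. Among all genes called in Rec, 36.6% were then higher, against 47.2% in the main analysis. With 1 library left out, the counts of higher and lower members were 15 to 16 and 10 to 11 in clone1, 13 to 15 and 7 to 9 in clone19, 6 to 7 and 9 to 12 in Rec, 9 to 11 and 12 to 13 in clone19 against clone1, 6 to 7 and 18 to 21 in Rec against clone1, 6 to 7 and 18 to 20 in Rec against clone19, and 17 to 20 and 8 in both clones against Fh1_fl_fl and Rec. Same-numbered libraries of different groups did not deviate together (median correlation 0.02 over 30 pairs, 6 of them over 0.1), and 6 of 20 libraries matched their own number best. The replicate block gave adjusted p = 0.0505 for Kdm4a in clone19, 0.0508 for Alkbh7 in Rec and 0.0468 for Alkbh5 in Rec, and changed no other member's call. Calls that DESeq2 did not make included Ogfod2 in clone1 (adjusted p = 0.131), Alkbh7 (0.067) and Kdm3b (0.0565) in Rec and Jarid2 between the clones (0.0972). The contrast of both clones could not be fitted with only the groups compared, since it uses all 4. The causes of these changes were not tested. Depth limits Tet1, Tet2 in clone19, Kdm4d, Jmjd8 and P4htm, which held few counts per library.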
